A study of Mus musculus with 6 samples.

Results

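The genes described here encode apolipoproteins and other proteins that early endoderm secretes, and they were set out by name: *Apob*, *Apoa1*, *Apoa2*, *Apoa4*, *Apom*, *Mttp*, *Ttr*, *Afp*, *Trf* and *Rbp4*. Each of the 10 symbols was found in the gene column of the authors' expression table, in 1 row of its own, out of 24207 rows. The genes were chosen by their measured difference between the genotypes in these same data, so that 7 of them (lower in the mutant) could be set against *Afp*, *Apoa2* and *Trf* (higher in the mutant). Their direction is therefore a description and not a test.

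The values come from RNA-seq of 6 male mouse embryos at E9.5, 3 Smchd1+/+ and 3 homozygous Smchd1MommeD1/MommeD1. Smchd1 is a chromatin protein required for X inactivation, and MommeD1 is a mutant allele of its gene that arose in a chemical mutagenesis screen. The sample labels give the background strain of both groups as C57Bl6/J x FVB/n, whereas the text of the study describes a backcross to 129 T2/SvEms for the RNA-seq embryos. Embryos were flash frozen after dissection. The study's methods name the yolk sac as the genotyping tissue for its E9.5 microarray embryos, which were a separate set. How much extraembryonic tissue stayed with the embryos that were sequenced is not given in the sources used here.

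The table holds 1 FPKM value per genotype, which the authors pooled over its 3 embryos. FPKM is a count of fragments scaled to the length of the transcript and to the mapped fragments of the library, so levels can be compared between genes per length. These pooled values carry no spread between embryos, so no difference below was set against replicate error, and no test was made. The results of the authors' own test, which stand in the same table, were not used. *Smchd1* itself was at 2.12 FPKM in the mutant and 34.0 FPKM in the wildtype. The median log2 ratio over the 12463 rows with a mean of at least 1 FPKM was -0.0076, so the genotypes were on nearly the same scale.

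Apolipoproteins are the protein part of the particles that carry lipid between tissues. *Apob* is the large scaffold of particles rich in triglyceride, onto which the product of *Mttp* loads lipid in the endoplasmic reticulum, while *Apoa1* and *Apoa2* are the chief proteins of high-density lipoprotein. Before the liver works, the visceral endoderm of the yolk sac makes these proteins together with the carriers transthyretin (*Ttr*), retinol-binding protein (*Rbp4*), alpha-fetoprotein (*Afp*) and transferrin (*Trf*), and the liver bud later takes the task over. Many of their promoters are known targets of the liver-enriched factors HNF1, HNF4, FOXA and C/EBP.

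Promoter sequences are shown for 5 of the genes, because genes that went apart between the genotypes can be compared at their start sites. They are the 250 bases before the transcription start in the RefSeq table for GRCm38.p6, the assembly that mm10 names. Entries for 8 of the 10 genes were read, none of them for *Trf* or *Ttr*. Capitals mark matches, on either strand, to GTTAAT (a half-site of HNF1), TGTTTAC (FOXA), CAAAGTCCA (HNF4) and TTGCNNAA (C/EBP), and no matches overlapped. *Afp* and *Apoa2* were higher in the mutant, *Apob*, *Apoa1* and *Rbp4* lower.
Afp: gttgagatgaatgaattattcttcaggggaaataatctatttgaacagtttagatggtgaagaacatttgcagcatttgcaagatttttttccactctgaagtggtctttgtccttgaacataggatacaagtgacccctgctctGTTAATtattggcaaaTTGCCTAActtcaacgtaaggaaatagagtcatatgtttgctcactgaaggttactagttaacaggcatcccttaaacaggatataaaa
Apoa2: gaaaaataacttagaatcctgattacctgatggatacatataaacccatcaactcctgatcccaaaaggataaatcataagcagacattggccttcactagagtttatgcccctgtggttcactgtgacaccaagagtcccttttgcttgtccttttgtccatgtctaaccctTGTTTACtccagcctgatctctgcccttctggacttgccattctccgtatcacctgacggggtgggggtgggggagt
Apob: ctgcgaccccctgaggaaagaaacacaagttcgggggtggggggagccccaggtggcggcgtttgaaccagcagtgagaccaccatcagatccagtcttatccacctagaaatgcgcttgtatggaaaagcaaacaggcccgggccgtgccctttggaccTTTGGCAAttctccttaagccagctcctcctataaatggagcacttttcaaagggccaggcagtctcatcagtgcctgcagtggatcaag
Apoa1: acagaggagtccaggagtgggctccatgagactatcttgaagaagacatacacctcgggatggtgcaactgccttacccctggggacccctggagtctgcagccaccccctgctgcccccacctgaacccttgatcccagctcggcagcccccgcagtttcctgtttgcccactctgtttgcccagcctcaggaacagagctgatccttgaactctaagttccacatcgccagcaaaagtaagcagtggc
Rbp4: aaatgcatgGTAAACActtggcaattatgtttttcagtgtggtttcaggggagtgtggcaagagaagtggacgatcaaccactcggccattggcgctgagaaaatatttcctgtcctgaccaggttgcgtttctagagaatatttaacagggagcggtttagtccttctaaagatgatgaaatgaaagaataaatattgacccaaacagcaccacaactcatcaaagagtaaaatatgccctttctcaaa

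The *Afp* sequence lies on the plus strand at chr5:90490464-90490713, that of *Apoa2* on the plus strand at chr1:171224804-171225053, and that of *Apob* on the plus strand at chr12:7977427-7977676. The sequence of *Apoa1* is on the plus strand at chr9:46228380-46228629, and that of *Rbp4* on the minus strand at chr19:38125322-38125571. *Afp* held the HNF1 half-site, beginning 105 bases before the start, and a C/EBP match beginning 89 bases before it. *Apoa2* held a FOXA match 77 bases before its start, *Rbp4* a FOXA match 241 bases before, and *Apob* a C/EBP match 90 bases before.

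Of the 8 genes read, 4 held a match to at least 1 motif, and *Apoa1*, *Apoa4*, *Apom* and *Mttp* held none. FOXA matches were found in 2 of the 8 and in 3.17% of all 32851 promoters of the same length. The C/EBP letters were in 2 of 8 against 9.56%, the HNF1 half-site in 1 of 8 against 6.43%, and the HNF4 letters in 0 of 8 against 0.384%. The FOXA matches fell in a gene that was higher (*Apoa2*) and in one that was lower (*Rbp4*), as did the C/EBP matches (*Afp* and *Apob*). A match is only a run of letters and was not tied to binding. The share of G and C was 36% in *Afp* and 46.4% in *Apoa2*, the higher genes that were read. Among the 6 lower genes it was 40.8% in *Rbp4*, 54% in *Apom*, 55.2% in *Apob*, 57.6% in *Apoa4*, 58% in *Apoa1* and 61.2% in *Mttp*, so that all of them but *Rbp4* lay above both higher genes. With 2 genes on one side, and genes picked by direction, this is a description only.

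In the mutant embryos *Apob*, *Apom* and *Ttr* were at least 2-fold lower, *Apoa1* and *Rbp4* were lower by less than that, and *Mttp* was nearly level. *Apoa2* was more than 2-fold higher, and *Afp* and *Trf* were higher by less. In these whole embryos fewer cells of a type and less RNA per cell cannot be told apart. Ratios are log2 of mutant over wildtype with 0.1 FPKM added to each value, which shrinks the ratio of genes at low level. Just past 2-fold lay *Apom* (-1.25) and just short of it *Apoa1* (-0.87), *Rbp4* (-0.85) and *Afp* (0.85). So 3 of the 10 genes were at least 2-fold lower and 1 was at least 2-fold higher. Among all rows with a mean of at least 1 FPKM, 0.514% were at least 2-fold lower and 0.979% at least 2-fold higher. Of the 8 genes described that also had such a mean, 2 were at least 2-fold lower (*Apom* and *Ttr*) and 1 at least 2-fold higher. Lower by any amount were 51.8% of these rows and higher 48.2%, against 5 and 3 of the 8 genes, or 7 and 3 of all 10. Since the genes were picked for this difference, nothing is read from their counts beside these shares.

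**Figure D1:**
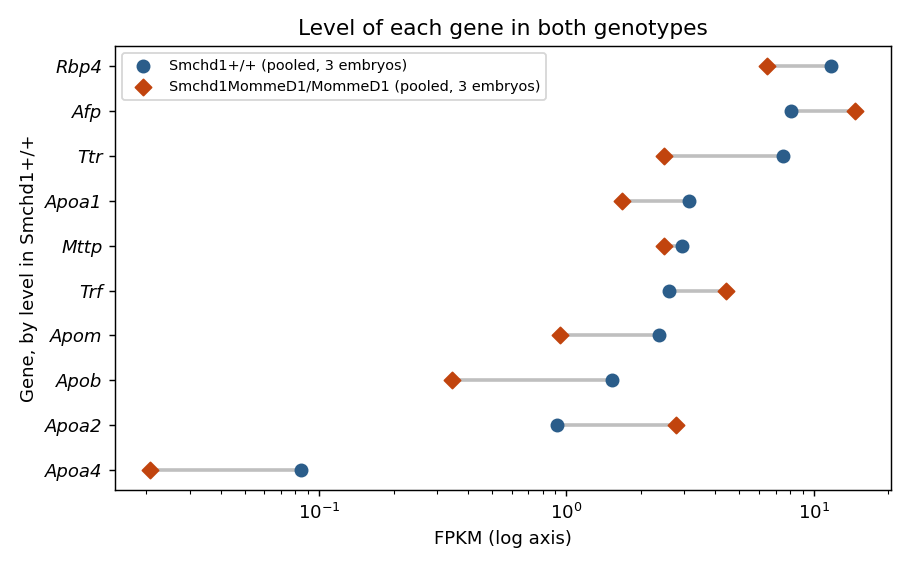
FPKM of each gene (log axis) in Smchd1+/+ (circles) and Smchd1MommeD1/MommeD1 embryos (diamonds), 1 value per genotype pooled over 3 embryos, with a line joining the values of a gene and no error bars. The diamonds of Afp, Trf and Apoa2 lie to the right of their circles and those of the other 7 genes to the left, from Mttp (2.48 and 2.94 FPKM) to Apob (0.346 and 1.52 FPKM).

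*Apob* lies on chromosome 12 of mm10 from 7977677 to 8016839. It was at 0.346 FPKM in the mutant and 1.52 FPKM in the wildtype, a log2 ratio of -1.86, the most negative among the 10 genes. Its longest annotated transcript is 13934 bp, so that this low level still stood for many fragments, as set out further on. Among the 3737 rows with a mean of at least 0.1 and under 1 FPKM, where *Apob* falls with a mean of 0.934 FPKM, 2.25% were at least 2-fold lower and 6.29% at least 2-fold higher.

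*Apom*, whose product carries sphingosine 1-phosphate on lipoproteins, lies on chromosome 17 from 35128997 to 35131752. Its level was 0.938 FPKM in the mutant and 2.37 FPKM in the wildtype, a log2 ratio of -1.25. *Apoa1* (chromosome 9, 46228630 to 46230466) had 1.67 and 3.13 FPKM, a log2 ratio of -0.87. Both genes were lower in the mutant, *Apoa1* by less than 2-fold.

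*Apoa2* went the other way. The gene (chromosome 1, 171225054 to 171226379) had 2.77 FPKM in the mutant and 0.913 FPKM in the wildtype, a log2 ratio of 1.5. In the wildtype *Apoa2* stood at 0.292 times the level of *Apoa1*, and in the mutant at 1.65 times that level. This ratio within a genotype, taken without the added 0.1 FPKM, does not depend on the scaling between genotypes, and it was 5.67 times larger in the mutant. Since *Apoa2* was picked as higher and *Apoa1* as lower, that direction was given by the choice and adds no support. The wildtype value of *Apoa2* rested on only about 25 fragments. Of the 5814 rows with a mean from 1 to under 10 FPKM, which include *Apoa2*, *Apom* and *Ttr*, 0.671% were at least 2-fold lower and 1.72% at least 2-fold higher.

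*Apoa4*, an apolipoprotein of intestinal and yolk sac particles on chromosome 9 from 46240844 to 46243458, was barely detected. Its values were 0.0208 FPKM in the mutant and 0.0847 FPKM in the wildtype, and it was the only gene of the 10 that the authors' program marked as having too few reads to test. Without the added 0.1 FPKM its log2 ratio would be -2.03, and with it -0.61. No weight can be placed on either value.

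*Mttp*, which encodes the lipid-transferring subunit of the microsomal triglyceride transfer protein, lies on chromosome 3 from 138089855 to 138143388. It was at 2.48 FPKM in the mutant and 2.94 FPKM in the wildtype, a log2 ratio of -0.24. The gene for the assembly factor thus stood nearer to its wildtype level than that of its chief client. *Mttp* stood at 1.93 times the level of *Apob* in the wildtype and at 7.17 times in the mutant.

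Of the carriers, *Ttr*, which binds thyroxine and the retinol-binding protein, differed most. It spans 20665250 to 20674326 of chromosome 18, and stood at 2.48 FPKM in the mutant and 7.51 FPKM in the wildtype, a log2 ratio of -1.56. *Rbp4*, which carries retinol in the blood in complex with transthyretin, lies on chromosome 19 from 38116620 to 38125321. It was at 6.46 and 11.8 FPKM, a log2 ratio of -0.85. Both partners of the retinol transport complex were therefore lower, *Ttr* past 2-fold and *Rbp4* not, and the level of *Ttr* relative to *Rbp4* was 0.383 in the mutant and 0.639 in the wildtype.

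*Afp*, the main serum protein of the embryo, spans 90490714 to 90508907 of chromosome 5. It was at 14.7 FPKM in the mutant and 8.10 FPKM in the wildtype, a log2 ratio of 0.85. *Trf*, which delivers iron to cells, spans 103208876 to 103230286 of chromosome 9, with values of 4.43 and 2.60 FPKM, a log2 ratio of 0.75. Both were higher in the mutant by less than 2-fold. In the band of *Afp*, the 6649 rows with a mean of 10 FPKM or more, 0.376% were at least 2-fold lower and 0.331% at least 2-fold higher.

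**Figure D2:**
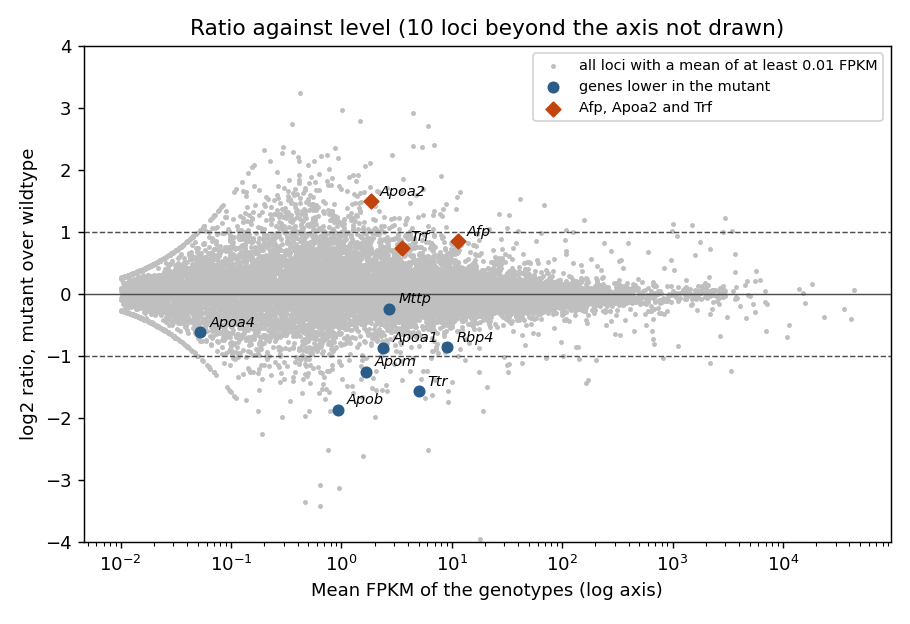
The log2 ratio of mutant over wildtype (0.1 FPKM added) against the mean FPKM of the genotypes (log axis), for the 18667 loci whose mean reached 0.01 FPKM (grey; 10 lie beyond the axis and are not drawn) and the 10 genes (blue circles lower, red diamonds higher), with dashed lines at 2-fold. Apob, Ttr and Apom lie below the lower line and Apoa2 above the upper one, while Apoa4, at the far left, lies where the added 0.1 FPKM shrinks the ratio.

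The order of the genes by level differed between the genotypes. In the wildtype *Rbp4* was the most abundant per length, followed by *Afp*, *Ttr* and *Apoa1*, and *Apoa2* was 9th. In the mutant *Afp* came first, followed by *Rbp4*, *Trf* and *Apoa2*. The ratio of *Afp* to *Ttr* was 1.08 in the wildtype and 5.94 in the mutant, and that of *Trf* to *Rbp4* was 0.221 and 0.686. Each of these ratios pairs a gene picked as higher with one picked as lower. Their direction, and the rise of *Afp*, *Trf* and *Apoa2* in the order, therefore follow from the choice of genes. Neighbors in these orders cannot be told apart beyond their spread, since no spread is known.

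The 10 genes together held 36.3 FPKM in the mutant and 40.9 FPKM in the wildtype, a log2 ratio of -0.17. The 7 lower genes summed to 14.4 and 29.3 FPKM, and *Afp*, *Apoa2* and *Trf* to 21.9 and 11.6 FPKM. The carriers *Ttr*, *Afp*, *Trf* and *Rbp4* summed to 28.1 and 30.0 FPKM, a log2 ratio of -0.09. For the 5 apolipoproteins the sums were 5.75 and 8.02 FPKM.

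Because FPKM is a level per length, the genes differ in how many fragments stand behind a value. The table gives no counts, but among genes with a single annotated transcript the lowest values, multiplied by transcript length in kb, gathered near 0.0188 in the mutant and 0.0186 in the wildtype. The range of values taken as this step was set after the data were seen. If the step is 1 fragment, it corresponds to about 53100000 and 53800000 mapped fragments per genotype over its 3 libraries. Between the 10th and 90th percentile the step spread from 0.0161 to 0.0240 in the mutant and from 0.0144 to 0.0254 in the wildtype, so the numbers that follow are approximate, and no interval was computed from them.

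On this basis *Apob* rested on about 256 fragments in the mutant and 1139 in the wildtype, *Ttr* on 156 and 479, and *Afp* on 1611 and 898. *Apoa1* rested on about 92 and 174, *Mttp* on 522 and 627, *Trf* on 605 and 360, and *Rbp4* on 398 and 733. *Apoa2*, with a transcript of 518 bp, rested on about 76 and 25 fragments, and *Apom* on 50 and 129. *Apoa4* rested on about 2 and 8. Apart from *Apoa4*, every gene of the 10 had at least about 25 fragments in either genotype. These numbers bear on counting alone and say nothing of how embryos of a genotype differ.

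The other genes of these pathways were grouped in lists that were drawn up with earlier results of these data known. As a background for their counts, 49.4% of the 16200 rows with a mean of at least 0.1 FPKM were lower and 50.6% higher, 0.914% at least 2-fold lower and 2.2% at least 2-fold higher, and their median log2 ratio was 0.0036. Of 10 other apolipoprotein genes, 4 had a mean of 1 FPKM or more, 2 lower and 2 higher, with a median log2 ratio of 0.32. With *Apoc2*, which passes at 0.1 FPKM, the median turned to -0.07. *Apoe*, which directs the uptake of particles by receptors, was the most abundant at 18.0 FPKM in the mutant and 22.3 FPKM in the wildtype, a log2 ratio of -0.31. *Clu*, also called apolipoprotein J, was at 5.38 and 5.66 FPKM. *Apod*, a lipocalin made by many non-endodermal cells, was at 1.34 and 0.784 FPKM, a log2 ratio of 0.71. *Apoc4* and *Apoh* were listed at 0 in both genotypes.

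The small particle proteins of the *Apoe* cluster on chromosome 7 differed from each other. *Apoc1*, 6.51 kb from the start of *Apoe*, was at 2.18 FPKM in the mutant and 0.543 FPKM in the wildtype, a log2 ratio of 1.82. *Apoc2*, the activator of lipoprotein lipase, 22.3 kb away, was at 0.115 and 1.77 FPKM, a log2 ratio of -3.13. *Apoc1* was therefore higher and *Apoc2* lower, by more than 2-fold each, with about 62 and 16 fragments for *Apoc1* and about 4 and 69 for *Apoc2*. The ratio of *Apoc1* to *Apoc2* was 19.0 in the mutant and 0.306 in the wildtype.

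In the *Apoa1* cluster on chromosome 9, *Apoa1* was the only gene above 0.1 FPKM in either genotype. *Apoc3*, 6.67 kb from it, was at 0.0487 FPKM in the mutant and at 0 in the wildtype, and *Apoa5* was at 0.0374 and 0.0342 FPKM. Beside *Afp* on chromosome 5, albumin (*Alb*), whose start lies 29.8 kb away, was at 1.09 and 0.329 FPKM, a log2 ratio of 1.47. Afamin (*Afm*), 28.2 kb on the other side, was at 0.119 and 0.0907 FPKM. *Alb* was thus higher in the mutant together with *Afp*, which is its homolog, and *Afm* was too low to read.

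**Figure D3:**
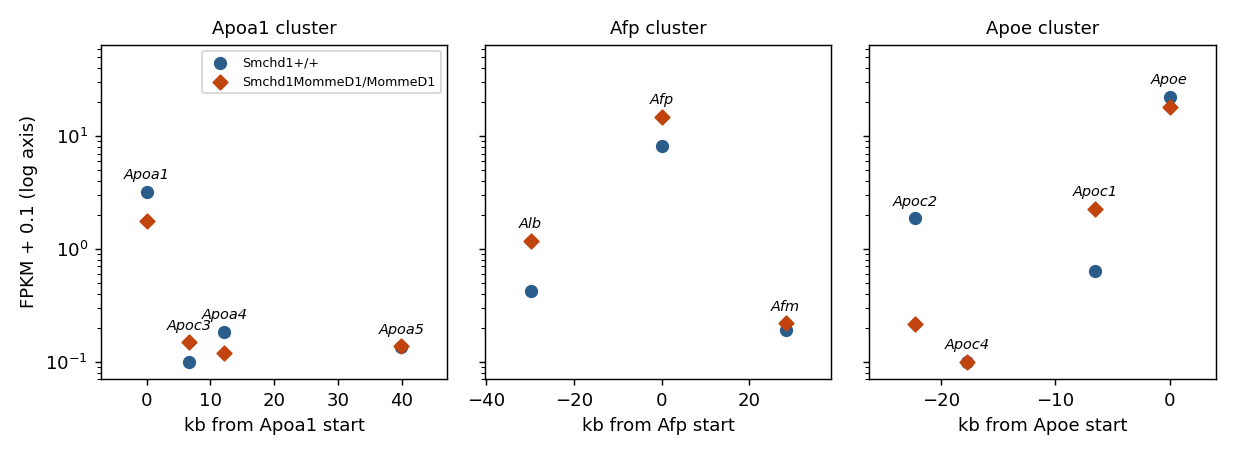
FPKM plus 0.1 (log axis) of the genes of 3 clusters against the distance of their start, in kb along the chromosome, from that of Apoa1, Afp or Apoe, for Smchd1+/+ (circles) and Smchd1MommeD1/MommeD1 (diamonds). Apoa1 and Apoc2 are higher in the wildtype, Afp, Alb and Apoc1 in the mutant, and Apoc4 is at 0 in both genotypes.

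Genes that assemble or remodel lipoproteins were close to level, apart from a few at low level. Of 15, 7 had a mean of 1 FPKM or more, 6 lower and 1 higher, none past 2-fold, with a median log2 ratio of -0.13. At 0.1 FPKM 11 were counted, 9 lower and 2 higher, with a median of -0.15. *P4hb*, whose product is the other subunit of the transfer protein, was at 284 FPKM in the mutant and 296 FPKM in the wildtype. *Sar1b*, which drives the export of large particles from the endoplasmic reticulum, was at 42.4 and 47.0 FPKM. *Pltp*, a phospholipid transfer protein of plasma, was at 10.2 and 7.47 FPKM. Past 2-fold were *Soat2*, which esterifies cholesterol for secretion (0.160 and 0.482 FPKM), and *Pla2g12b* (0.221 and 0.548 FPKM), both lower. They are 2 of the 11, against 0.914% of all rows with such a mean and 2.25% of those under 1 FPKM, where both lie. *Soat2* rested on about 19 and 57 fragments and *Pla2g12b* on 13 and 32. The authors' program marked *Soat2* as having too few reads to test. *Apobec1*, which edits *Apob* mRNA, was at 0.0398 and 0.0233 FPKM, too low to read.

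Most receptors and binding partners of the secreted proteins were near level. Of 12 genes, 9 had a mean of 1 FPKM or more, 5 lower and 4 higher, with a median log2 ratio of -0.0038, a sign that turned to 0.0038 with the median row set to 0. All 12 passed at 0.1 FPKM, 7 lower and 5 higher. Among widely expressed genes, *Tfrc*, the transferrin receptor, was at 60.0 and 60.1 FPKM, and *Scarb1*, the receptor for high-density lipoprotein, at 20.2 and 20.4 FPKM. *Cubn* and *Amn*, whose products form the receptor through which yolk sac endoderm takes up *Apoa1* and other proteins, were at 0.157 and 1.37 FPKM and at 0.127 and 0.444 FPKM, with log2 ratios of -2.51 and -1.26. *Lrp2*, their partner, was at 3.60 and 5.85 FPKM, a log2 ratio of -0.69. The values of *Amn* rested on about 11 and 41 fragments, and the authors' program marked it as having too few reads to test. Of the 12 genes 2 were past 2-fold, both lower. Among all rows with a mean of at least 0.1 FPKM, 0.914% were at least 2-fold lower, and 2.25% among those under 1 FPKM, where *Cubn* and *Amn* lie.

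Other serum proteins that the fetal liver secretes, as listed here, were mostly higher in the mutant, like *Afp*, *Apoa2* and *Trf*. The list leaves out *Ttr*, *Rbp4*, *Apob* and *Apoa1*, which the liver also comes to make and which were lower. It therefore does not stand for all liver transcripts. Of 29 genes in this list, 21 had a mean of at least 0.1 FPKM, of which 19 were higher and 2 lower, with a median log2 ratio of 0.76. Of all rows with such a mean 50.6% were higher. By the 2-fold measure 4 of the 21 were higher and 0 lower (*Serpina6*, *Alb*, *Fgg* and *Itih2*), or 19% against 2.2% of all rows with such a mean. All of these but *Itih2* had a mean under 1 FPKM. Of the rows from 0.1 to under 1 FPKM, 6.29% were at least 2-fold higher. The genes of the list stand at low level, with 6 of 29 at a mean of at least 1 FPKM, and all 6 of these were higher, with a median of 0.83.

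*Vtn*, encoding vitronectin, was the most abundant of them, at 8.87 FPKM in the mutant and 5.21 FPKM in the wildtype, a log2 ratio of 0.76. *Ambp*, the precursor of alpha-1-microglobulin and bikunin, was at 2.55 and 1.32 FPKM. *Itih2*, a heavy chain that is linked to bikunin, was at 2.13 and 0.979 FPKM, a log2 ratio of 1.05. *Cp*, which encodes ceruloplasmin and loads iron onto transferrin, was at 1.68 and 1.65 FPKM and so was level. *Serpina6*, the carrier of corticosteroids, was at 0.883 and 0.166 FPKM, a log2 ratio of 1.89, on about 75 and 14 fragments. Reads of the near-identical *Serpina1* genes are hard to assign and their values are uncertain.

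**Figure D4:**
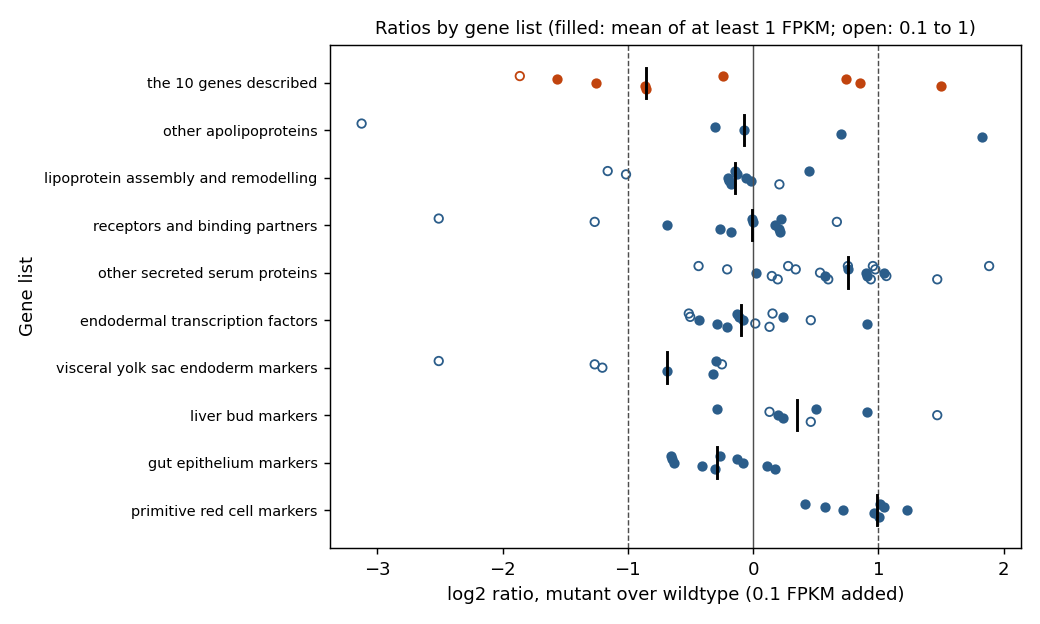
The log2 ratio of mutant over wildtype (0.1 FPKM added) of the genes in each list with a mean of at least 0.1 FPKM, filled where the mean is at least 1 FPKM and open below, with a black bar at the list's median and dashed lines at 2-fold. Visceral yolk sac endoderm markers all lie below 0 (7 of 7) and primitive red cell markers all above 0 (8 of 8), secreted serum proteins mostly above 0 (19 of 21), and the 10 genes described here lie on both sides.

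All 14 transcription factors of endoderm had a mean of at least 0.1 FPKM, 8 were lower and 6 higher, none by 2-fold, and the median log2 ratio was -0.10. For the 8 with a mean of 1 FPKM or more it was -0.12. *Gata6* was at 9.91 FPKM in the mutant and 11.5 FPKM in the wildtype, *Gata4* at 7.0 and 9.48 FPKM, and *Foxa2* at 3.81 and 4.03 FPKM. *Hnf4a*, a direct activator of many of the genes described here, was at 0.449 and 0.401 FPKM. *Onecut1*, a factor of the liver and pancreas buds, had the largest ratio, 0.91, with 2.42 and 1.24 FPKM.

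Markers of the tissues that make these proteins went the same way as some of them. All 7 visceral yolk sac endoderm markers were lower in the mutant (median log2 ratio -0.69, 3 past 2-fold, and -0.32 for the 3 with a mean of 1 FPKM or more), where 49.4% of all rows down to 0.1 FPKM were lower and 0.914% past 2-fold. The 3 past 2-fold (*Cubn*, *Amn* and *Slc2a2*) had a mean under 1 FPKM, and from 0.1 to under 1 FPKM 2.25% of rows were at least 2-fold lower. The yolk sac list leaves out *Afp*, *Apoa2* and *Trf*, which visceral endoderm also makes and which were higher. It therefore does not stand for all transcripts of that tissue. The summed level of the 7 markers was 16.9 FPKM in the mutant and 23.9 FPKM in the wildtype. Most of that sum is *Dab2*, an adaptor for endocytosis that is not limited to this tissue, at 11.0 and 13.6 FPKM, and *Rhox5*, a homeobox gene, was at 1.84 and 2.32 FPKM. Of 8 liver bud markers, 7 were higher and *Hhex* was lower (median 0.35, 1 past 2-fold, and 0.24 for the 5 with a mean of 1 FPKM or more), with sums of 89.2 and 65.5 FPKM, mostly from *Dlk1* at 70.8 and 50.0 FPKM. *Tbx3*, a factor of liver bud growth, was at 7.28 and 6.33 FPKM. The values are from whole embryos, so neither the counts nor the sums of this list can be assigned to the liver bud. The liver bud list also leaves out *Ttr*, *Rbp4*, *Apob* and *Apoa1*, which the liver comes to make and which were lower. Of all rows down to 0.1 FPKM, 50.6% were higher and 2.2% past 2-fold. In the band from 0.1 to under 1 FPKM, where *Alb*, the 1 marker past 2-fold, falls, 6.29% were past it. *Alb* counts both here and among the serum proteins, and *Hnf4a*, *Hhex*, *Prox1*, *Onecut1* and *Cebpa* also among the transcription factors. *Cubn*, *Amn* and *Lrp2* count both among the yolk sac markers and the receptors. No marker of either list was listed at 0, although *Slc2a2* (0.0684 and 0.288 FPKM) and *Muc13* (0.0918 and 0.128 FPKM) were low. The authors' program marked *Amn*, *Slc2a2*, *Muc13* and *Hnf4a* as having too few reads to test. The part of these tissues in the differences of the 10 genes was not tested.

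Of 10 gut epithelium markers with a mean of at least 0.1 FPKM, 8 were lower and 2 higher (median log2 ratio -0.29), with *Krt8* at 46.8 and 73.1 FPKM, *Krt18* at 42.3 and 65.4 FPKM and *Cldn6* at 34.8 and 46.3 FPKM. These genes are also expressed in other epithelia and in yolk sac endoderm. Of all rows with a mean of at least 0.1 FPKM, 49.4% were lower. All 8 primitive red cell markers were higher in the mutant, with a median of 0.99 and a summed level of 12697 FPKM against 6012 FPKM, almost all of it from embryonic globins. Past 2-fold were 4 of the 8, the globins *Hba-x* (4602 and 2274 FPKM), *Hbb-y* (4191 and 1787 FPKM) and *Hbb-bh1* (3845 and 1918 FPKM), and *Alas2*, the first enzyme of heme synthesis in red cells (29.3 and 14.1 FPKM). All 8 had a mean of at least 1 FPKM. Of all rows with such a mean, 48.2% were higher and 0.979% at least 2-fold higher. The part of blood cells in the values of *Afp*, *Apoa2* and *Trf* was not tested.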

How the data were processed

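RNA-seq of 6 male E9.5 embryos, 3 per genotype, was used, grouped by the genotype in the sample labels. The authors mapped reads to MM10 with TopHat2 2.0.6 and Bowtie2 2.0.2 and compared genotypes with Cufflinks/Cuffdiff 2.0.2, per the labels and the study's methods. The unit of the deposited values is FPKM, 1 per genotype and locus, pooled by the authors over 3 embryos. The table calls its conditions Smchd1_M and Smchd1_P, and a supplementary copy of it names them as mutant and wildtype. Columns with the authors' fold changes, test statistics, p-values and q-values were not used. The strand setting of the counting is not given in the sources used here.

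Log2 ratios were computed with 0.1 FPKM added, without a test, since there is 1 value per genotype. Where a symbol had several rows, that with the highest mean was taken. Locus starts were counted from 1, which equalled the RefSeq start for 8951 of 20102 symbols, against 571 as written. Transcript lengths are those of the longest GENCODE M21 transcript. The counting steps were tested on simulated data. The genes and the 9 lists were chosen with earlier results of these data known. All 10 genes were named, with the 3 of each list with the highest mean, those past 2-fold at a mean of at least 1 FPKM, and cluster neighbors. Others (such as *Apod*, *Onecut1*, *Hnf4a*, *Cubn* and *Soat2*) were named after their values were seen, and list members were counted at a mean of 1 FPKM and, as an alternative, 0.1 FPKM. No protein sequences were compared, and the values of some genes of the receptor list are not reported here. Python 3.11.15, numpy 2.4.6, pandas 2.3.3 and matplotlib 3.10.9 were used.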

Additional observations from a re-analysis of the deposited data

How the results depend on the processing

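No paired analysis was possible because the table holds 1 value per genotype. For the same reason no embryo could be left out. The direction of each of the 10 genes held in all 50 alternative values, which covered pseudocounts, scalings and summed rows. That outcome was fixed beforehand and is no sign of robustness. A pseudocount added to both genotypes cannot turn a direction, and each gene had only 1 row to sum. The scalings shifted log2 ratios by only -0.016 or by the median of -0.0076, against -0.24 for *Mttp*, the gene nearest its wildtype level. The numbers at least 2-fold lower and higher (3 and 1) became 1 and 0 with 1 FPKM added, 6 and 3 at 1.5-fold, and 1 and 0 at 3-fold. With 1 FPKM added, the log2 ratio of *Apob* was -0.91. Over all rows the numbers lower and higher (64 and 122) became 41 and 54 with 1 FPKM added, 183 and 438 at 1.5-fold, 16 and 32 at 3-fold, 148 and 357 when rows down to 0.1 FPKM were let in, and 36 and 37 when rows under 5 FPKM were left out. These follow from the setting itself. Of 60 alternative medians of the lists, 56 kept their direction. Those of other apolipoproteins (0.32) turned to -0.07 at 0.1 FPKM and -0.19 at 5 FPKM, and those of receptors (-0.0038) to 0.0038 when centered on the median row and 0.084 at 5 FPKM.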
